A study of Mus musculus with 9 samples.

Results

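Complement is a cascade of blood and tissue proteins that marks and kills microbes, and 5 genes of its central and regulatory steps were followed in the main olfactory epithelium, the nasal lining that holds the odor-sensing neurons. C3 encodes the component on which all routes of activation converge. Cfb encodes factor B, which joins activated C3 to form the C3 convertase of the alternative pathway. Cd55 encodes decay-accelerating factor, a membrane protein that takes such convertases apart on the cell's own surface. Cd59a and Cd59b are neighboring mouse genes for CD59, a small GPI-anchored protein that blocks assembly of the membrane attack complex at the end of the cascade.

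The 5 genes were taken by name from the 55291 genes of the deposited table, and all 5 had enough reads to be among the 23225 genes tested. Cd59a was selected on its level, which was lower in Ms4a6c knockout mice, Cd59b was added as its copy, and C3, Cfb and Cd55 for their place in the same pathway. For that reason, differences of these genes between Ms4a6c knockout and wild-type mice are given below as a description, without a test. The comparison of Ms4a cluster knockout with wild-type mice was tested, although it uses the same wild-type mice.

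RNA from 9 C57BL/6 mice aged 8 to 12 weeks was sequenced, 3 of each genotype. Wild-type littermates served as controls for both knockouts. Ms4a6c knockout mice carry an allele of Ms4a6c that the KOMP resource targeted by homologous recombination. Ms4a cluster knockout mice lack the whole cluster of Ms4a genes, removed with CRISPR/Cas9, Ms4a6c included. Ms4a genes encode membrane proteins that the study tested as odorant receptors. Neither the number of founders nor the litter of each control mouse was given in the sources used here.

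Expected counts, the numbers of reads that RSEM assigned to genes, summed to between 13954591 and 21987174 per mouse. Ms4a6c held between 54 and 90.3 counts in wild-type mice, between 0 and 2.35 in Ms4a6c knockout mice and 0 in every mouse without the cluster, which allows up to 3 counts. All 5 markers of olfactory sensory neurons were detected in every genotype, with a summed level of 8186 to 10597 CPM (each gene's count per TMM-scaled library size, as edgeR gives it). Wild-type mouse 1 and Ms4a cluster knockout mouse 2 stood apart, because 8 serous nasal gland transcripts summed to 236372 and 250995 CPM there. The other 7 mice had sums of 3559 to 35776 CPM. Mice with Xist and mice with the Y-linked Ddx3y were present in every genotype.

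Cd59a lies at chr2:104095801-104115354 on the plus strand of mouse genome build GRCm38 (GENCODE M21) and Cd59b just before it at chr2:104069849-104091187 on the same strand. Over the 357 aligned bases of their coding sequences, 304 were identical, or 85.2%. The first 150 bases of their longest alignment without gaps are shown because such differences are what allow a read to be assigned to one copy, with the 31 mismatches in capitals. The stretch covers coding bases 99 to 248 of Cd59a and 96 to 245 of Cd59b, read 5′ to 3′ from the GENCODE transcripts.
Cd59a: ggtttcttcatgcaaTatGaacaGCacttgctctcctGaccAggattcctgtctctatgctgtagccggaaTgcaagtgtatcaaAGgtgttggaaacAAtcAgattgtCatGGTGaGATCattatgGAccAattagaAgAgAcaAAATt
Cd59b: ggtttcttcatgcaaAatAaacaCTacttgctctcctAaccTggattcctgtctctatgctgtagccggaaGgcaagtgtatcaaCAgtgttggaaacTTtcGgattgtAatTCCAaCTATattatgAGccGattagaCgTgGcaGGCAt
The longest run of identical bases between any Cd59a and Cd59b transcript was 104 bases, shorter than the 150 bases of a read. RSEM gives fractional counts where it divides reads between genes. The counts of Cd59a, Cd59b and C3 were exact whole numbers in all 9 mice, and those of Cfb in 8 of 9. The counts of Cd55 were whole in none of the 9 mice. The related gene Cd55b matches Cd55 at 91.6% identity over 1157 bases and held 1.02 to 11.4 counts, so the division between them is uncertain by a small part of Cd55's counts.

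The regions just before the start sites of Cd59a and Cd59b share little sequence, although both genes had their lowest values in the same mice. They are shown because the 2 genes differed in the same direction, with 250 bases up to the start site of each gene from RefSeq on GRCm38.p6. That of Cd59a spans chr2:104095551-104095800 and that of Cd59b chr2:104070816-104071065, both on the plus strand. RefSeq places the start of Cd59b after the GENCODE start given above.
Cd59a: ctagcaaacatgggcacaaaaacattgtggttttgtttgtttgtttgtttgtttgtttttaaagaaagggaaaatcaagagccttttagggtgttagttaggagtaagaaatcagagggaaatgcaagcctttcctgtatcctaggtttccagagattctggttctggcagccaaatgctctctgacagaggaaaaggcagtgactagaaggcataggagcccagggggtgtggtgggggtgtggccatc
Cd59b: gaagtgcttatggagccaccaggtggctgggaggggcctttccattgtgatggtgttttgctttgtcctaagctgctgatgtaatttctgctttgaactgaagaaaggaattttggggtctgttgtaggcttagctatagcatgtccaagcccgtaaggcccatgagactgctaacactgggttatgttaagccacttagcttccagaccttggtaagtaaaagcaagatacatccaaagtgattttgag
The longest run of bases common to both was 8. Searched on both strands, neither held the CCAAT box (letters as named), found in 34.5% of 27025 promoters of that length. Neither held TATAAA, the TATA box, found in 13%, or the GC box GGGCGG, found in 32.9%. The motifs do not contain one another, and no match says only that these letters are not in this window.

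Cd59a, the copy that carried nearly all Cd59 reads here, was lower in each Ms4a6c knockout mouse than in any other mouse. In wild-type mice Cd59a stood at 15.6, 14.4 and 14.3 CPM. Values in Ms4a6c knockout mice were 7.13, 6.39 and 6.82 CPM. Ms4a cluster knockout mice gave 15.3, 15.3 and 15.7 CPM. The Ms4a6c knockout values thus overlapped with neither of the other genotypes, while those of the other genotypes overlapped each other. Values all below wild type were found for 8.55% of all genes tested, and values all below the cluster knockout for 7.86%. The share with both was not counted. Wild-type mice averaged 14.8 ± 0.687 CPM and Ms4a6c knockout mice 6.78 ± 0.373 CPM (SD, n = 3 each), the latter 45.9% of the former. This is a log2 fold change of -1.12 with a standard error of 0.09. These are the values for which the gene was chosen.

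**Figure D1:**
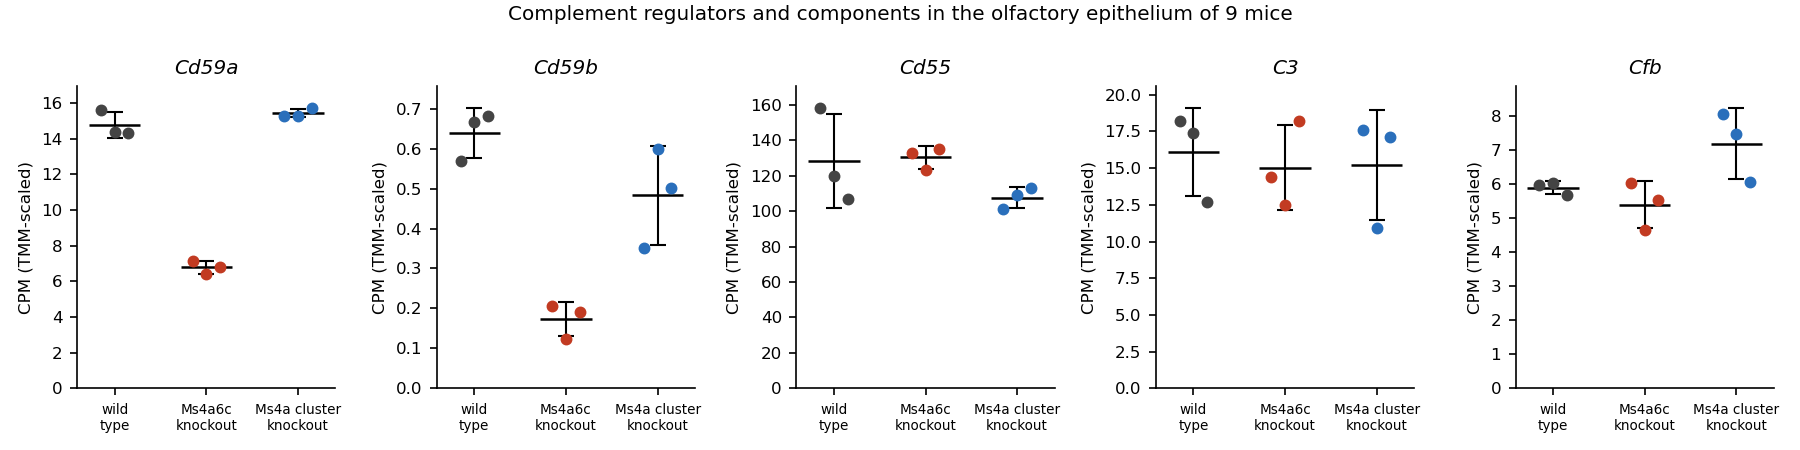
TMM-scaled CPM of the 5 genes in each of the 9 mice by genotype, with the mean (bar) and SD of 3 mice, each panel on its own linear axis from 0. Cd59a lies between 6.39 and 7.13 CPM in the 3 Ms4a6c knockout mice and between 14.3 and 15.7 CPM in the other 6, and Cd55, C3 and Cfb show no such gap.

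Removal of the whole cluster, Ms4a6c included, left Cd59a near the wild-type level. Cd59a averaged 15.4 ± 0.262 CPM (SD, n = 3). Against wild type the log2 fold change was 0.06 with a standard error of 0.09 and a 95% interval of -0.13 to 0.26, and the adjusted p was 0.999 (quasi-likelihood test of edgeR, Benjamini-Hochberg over all genes). Between the knockouts, which share no mice, the log2 difference in Cd59a was 1.18 with a standard error of 0.09, given without a test because the Ms4a6c knockout values led to the choice of the gene.

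Gland content and sex-linked transcripts were set beside the Cd59a values. The gland-rich mice, wild-type mouse 1 and Ms4a cluster knockout mouse 2, had 15.6 and 15.3 CPM, against 14.4 and 14.3 CPM and 15.3 and 15.7 CPM in the gland-poor mice of their genotypes. Among mice with Ddx3y, Cd59a was 15.6 CPM in the wild-type mouse, 6.39 and 6.82 CPM in Ms4a6c knockout mice and 15.7 CPM in the Ms4a cluster knockout mouse. Among mice with Xist, it was 14.3 and 14.4 CPM in wild type, 7.13 CPM in the Ms4a6c knockout and 15.3 CPM in both Ms4a cluster knockout mice. Over 19 other ways of processing, the log2 fold change of Cd59a in Ms4a6c knockout mice lay between -1.16 and -1.08.

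Summed markers of cell types were compared as well. Those of sensory neurons, glands, respiratory secretory and ciliated cells, neutrophils, B cells, fibroblasts, endothelial cells and red blood cells overlapped at least 1 other genotype. The sums of 2 further cell types, named after their values were seen, were separate in the Ms4a6c knockout mice. The 5 macrophage markers summed to 65.1 to 68.1 CPM there, against 71.2 to 91.2 CPM in wild-type and 78.7 to 92.3 CPM in Ms4a cluster knockout mice. The 5 sustentacular cell markers, of the supporting cells of the epithelium, summed to 6851 to 7379 CPM against 5881 to 6012 CPM and 5627 to 6197 CPM. No marker of either list was at 0, and the part of these cells in the Cd59a values was not tested. In bulk tissue, fewer cells of a type and less RNA per cell cannot be told apart.

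Cd59b, the second copy, was barely detected. Its counts were 8, 12 and 12 in wild-type mice, 5, 2 and 3 in Ms4a6c knockout mice and 7, 6 and 10 in Ms4a cluster knockout mice. In CPM these are means of 0.639 ± 0.0615, 0.173 ± 0.0433 and 0.483 ± 0.125 (SD, n = 3 each). Values in Ms4a6c knockout mice lay below all wild-type values, as they did for Cd59a, and 2 of the 3 were at or under the limit of 3 counts. Lower values without overlap in that comparison were found for 8.55% of all genes tested. The ratio of the summed counts, scaled by library size, was 0.276 in Ms4a6c knockout against wild-type mice. In the cluster knockout the ratio to wild type was 0.715, with an exact 95% interval of 0.399 to 1.26 that covers counting error only. The log2 fold change of -0.43 there had a standard error of 0.40 and an adjusted p of 0.976 by edgeR, and a difference was not detectable at this depth. Between the knockouts, Cd59b was higher in each Ms4a cluster knockout mouse, as for 7.86% of all genes tested. The log2 fold change was 1.39, with a standard error of 0.45 and an adjusted p of 0.353 by edgeR.

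The summed level of both copies followed Cd59a, since Cd59b made up between 1.9% and 4.55% of the sum in a mouse. By genotype it was 15.4 ± 0.626 CPM in the wild type, 6.95 ± 0.415 CPM in the Ms4a6c knockout and 15.9 ± 0.287 CPM in the cluster knockout (SD, n = 3 each). The difference of 0.508 CPM from wild type to cluster knockout had an exact two-sided permutation p of 0.3, where 0.1 is the smallest that 3 mice against 3 can give.

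Cd55, which acts earlier than CD59 by taking convertases apart, had the highest level of the 5 genes and showed no such difference. It lies at chr1:130439027-130462744 on the minus strand. Wild-type mice held 158, 120 and 107 CPM of Cd55. Ms4a6c knockout mice held 133, 123 and 135 CPM, and Ms4a cluster knockout mice 101, 109 and 113 CPM. The highest value was that of the gland-rich wild-type mouse 1, and Ms4a6c knockout values fell inside the wild-type range. Against wild type, the log2 fold change was 0.03 with a standard error of 0.12 in Ms4a6c knockout mice, and it ranged from -0.09 without wild-type mouse 3 to 0.20 without wild-type mouse 1. In the cluster knockout it was -0.25 with a standard error of 0.12, a 95% interval of -0.52 to 0.02 and an adjusted p of 0.968 by edgeR. Without wild-type mouse 1 and Ms4a cluster knockout mouse 2 that value was -0.08. Each Ms4a cluster knockout mouse was below each Ms4a6c knockout mouse, as for 8.09% of all genes tested. That difference of -0.27 on the log2 scale had a standard error of 0.12 and an adjusted p of 0.522.

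C3, the central component, varied among mice of 1 genotype as much as between genotypes. It lies at chr17:57203970-57228136 on the minus strand. Its levels were 18.2, 17.4 and 12.7 CPM in wild-type mice. They were 14.4, 12.5 and 18.2 CPM in Ms4a6c knockout mice, and 17.6, 10.9 and 17.1 CPM in Ms4a cluster knockout mice. The 3 ranges overlapped almost fully. The means were 16.1 ± 2.94, 15.1 ± 2.9 and 15.2 ± 3.77 CPM (SD, n = 3 each). The log2 fold change against wild type was -0.10 with a standard error of 0.21 in Ms4a6c knockout mice. For the cluster knockout it was -0.07 with a standard error of 0.21, a 95% interval of -0.53 to 0.39 and an adjusted p of 1 by edgeR. Its sign was not stable, and without the gland-rich mice the value was 0.21. Between the knockouts it was 0.03, with an adjusted p of 0.982.

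Cfb, factor B of the alternative pathway, was at a low level in all mice. It lies at chr17:34856374-34862518 on the minus strand. Wild-type mice had 5.97, 6.05 and 5.69 CPM. Ms4a6c knockout mice had 6.03, 4.65 and 5.54 CPM, and Ms4a cluster knockout mice 8.07, 7.48 and 6.06 CPM. The Ms4a cluster knockout values were all above the wild-type values, the closest by 6.06 against 6.05 CPM, and such a separation upward was found for 4.71% of all genes tested. The log2 fold change there was 0.28 with a standard error of 0.16, a 95% interval of -0.06 to 0.63 and an adjusted p of 0.97 by edgeR. In Ms4a6c knockout mice it was -0.12 with a standard error of 0.16, within overlapping values. Between the knockouts the log2 difference was 0.41 with a standard error of 0.16, and the adjusted p was 0.448. Cfb shares 2246 exonic bases with the readthrough gene Gm20547 on the same strand, which held between 0 and 10.8 counts, so a few reads could belong to either.

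Compared per length, Cd55 and Cd59a stood above C3 and Cfb in wild-type mice, and Cd59b below them. In wild-type mice Cd55 was at 26.4 ± 5.42 CPM per kb of transcript, Cd59a at 8.16 ± 0.38, C3 at 3.13 ± 0.571, Cfb at 2.09 ± 0.0667 and Cd59b at 0.492 ± 0.0473 (SD, n = 3 each). No neighbors in this order overlapped among wild-type mice. In Ms4a6c knockout mice, Cd59a at 3.53 to 3.94 CPM per kb overlapped C3 at 2.44 to 3.54 CPM per kb. With the cluster removed, Cd59a was at 8.42 to 8.69 CPM per kb, well above C3 at 2.11 to 3.43 CPM per kb, and C3 overlapped Cfb at 2.15 to 2.85 CPM per kb.

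None of the 5 genes passed an adjusted p of 0.05 in Ms4a cluster knockout against wild-type mice by edgeR or by DESeq2, and none had an unadjusted p under 0.05 by edgeR. In that comparison 0.0258% of all tested genes passed the adjusted threshold and 4.93% had an unadjusted p under 0.05. In Ms4a6c knockout against wild-type mice 0.435% of all genes passed the adjusted threshold, and in Ms4a cluster knockout against Ms4a6c knockout mice 0.443% passed it.

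The wider complement system was then examined in a list of 56 genes by role. Of these, 45 were tested and 3 had no read in any mouse, and 40 of those tested were not among the 5 genes above. None of these 40 passed an adjusted p of 0.05 by edgeR in any of the 3 comparisons, and DESeq2 passed 0, 0 and 3 of them. In Ms4a6c knockout against wild-type mice, 10 of the 40 had an unadjusted p under 0.05, or 25% against 10.5% of all genes. Of these, 6 were higher and 4 lower, where 5.34% and 5.13% of all genes were. Their median log2 fold change was 0.07, against -0.00 for all genes tested. In Ms4a cluster knockout against wild-type mice, 8 of the 40 had an unadjusted p under 0.05, or 20% against 4.93% of all genes. There 6 were higher and 2 lower, where 2.25% and 2.68% of all genes were. The median was 0.21 against 0.01 for all genes. Between the knockouts, 10 of the 40 had an unadjusted p under 0.05, or 25% against 9.38% of all genes. In the cluster knockout 7 were higher and 3 lower, where 4.68% and 4.7% of all genes were. The median was 0.05 against 0.01 for all genes.

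**Figure D2:**
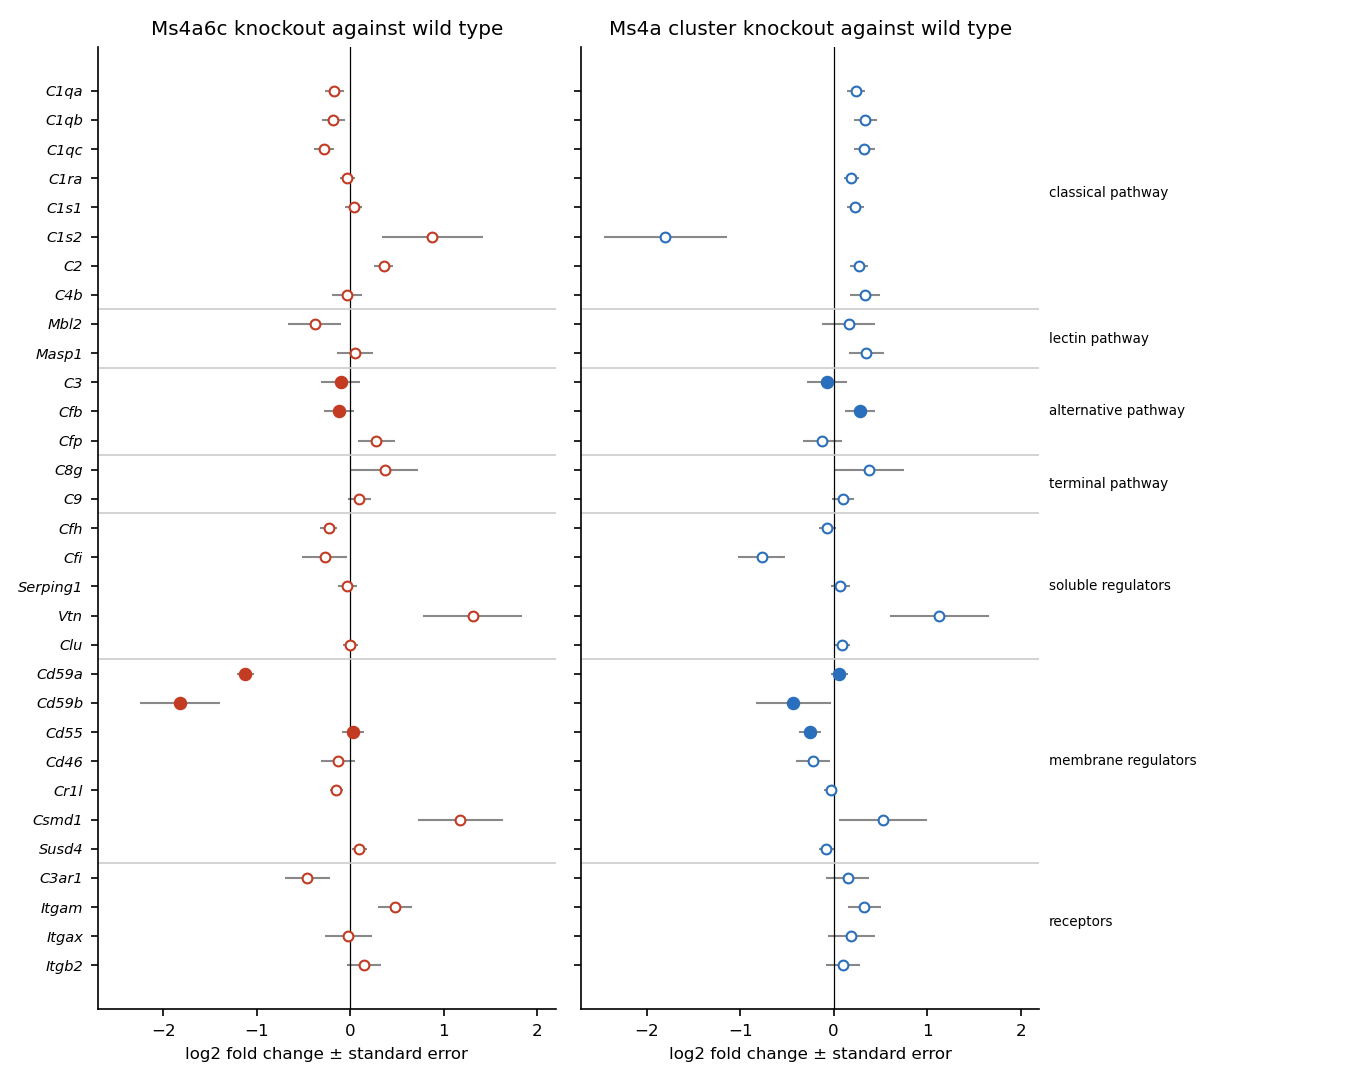
Log2 fold change with standard error, against wild type, of Cd59b and the 30 complement genes with a wild-type mean of at least 1 CPM, ordered by role, in Ms4a6c knockout (left) and Ms4a cluster knockout mice (right), 3 mice per genotype. Filled points are Cd59a, Cd59b, Cd55, C3 and Cfb. Cd59a at -1.12 and Cd59b at -1.82 stand left of zero among the membrane regulators in the left panel, while Cd59a is at 0.06 in the right panel.

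Of the 8 other genes listed as membrane regulators and tested, 0 were called by edgeR or DESeq2 in Ms4a6c knockout against wild-type mice. There 1 was higher and 1 lower at an unadjusted p under 0.05, or 25% against 10.5% of all genes, named after their values were seen. Csmd1 was higher, with a log2 fold change of 1.18, a standard error of 0.45 and an adjusted p of 0.391 by edgeR. Cr1l was lower, at -0.15 with a standard error of 0.07 and an adjusted p of 0.449. Among soluble regulators, clusterin (Clu), which binds the terminal complex, was at 352 ± 26.9, 352 ± 30.7 and 374 ± 12.4 CPM in wild-type, Ms4a6c knockout and cluster knockout mice (SD, n = 3 each). Serping1, which encodes the C1 inhibitor, had log2 fold changes of -0.03 and 0.07 in the Ms4a6c and Ms4a cluster knockouts, with standard errors of 0.10.

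Of the terminal components, whose assembly CD59 blocks, C9 had the highest level and most others had few or no reads. Of 7 listed genes, 3 were tested, and 0 had an unadjusted p under 0.05 in any comparison. C9, which forms the pore and which CD59 binds, was at 6.47, 6.32 and 6.88 CPM in wild-type mice. It was at 6.39, 7.13 and 7.65 CPM in Ms4a6c knockout mice, and at 7.21, 6.78 and 7.02 CPM in Ms4a cluster knockout mice. The groups overlapped, and the log2 fold change in Ms4a6c knockout mice was 0.10 with a standard error of 0.12 and an adjusted p of 0.822 by edgeR. C8g, a subunit of C8, had a log2 fold change of 0.37 in Ms4a6c knockout mice with a standard error of 0.36. Properdin (Cfp), which stabilizes the convertase of C3 and factor B, had log2 fold changes of 0.28 and -0.12 in the Ms4a6c and Ms4a cluster knockouts, with standard errors of 0.20 and 0.21.

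The classical pathway, which starts when C1q binds antibody or debris, held 7 of the 8 other complement genes with an unadjusted p under 0.05 in Ms4a cluster knockout against wild-type mice. All 10 of its genes were tested. In Ms4a cluster knockout against wild-type mice 6 were higher and 1 lower at that level, where 2.25% and 2.68% of all genes were. Between the knockouts 5 were higher in the Ms4a cluster knockout and 2 lower, where 4.68% and 4.7% of all genes were. None of these passed an adjusted p of 0.05 by edgeR. The 6 higher in the Ms4a cluster knockout than in wild type were the 3 chains of C1q, C1ra, C1s1 and C2. C1ra, C1s1 and C2 are named after their values were seen. Their log2 fold changes there were 0.19, 0.23 and 0.27, with standard errors of 0.08, 0.09 and 0.10. In Ms4a6c knockout against wild-type mice they were -0.03, 0.04 and 0.36, with the same standard errors, and C2 had an adjusted p of 0.219 by edgeR. C1qa, the A chain of C1q, was at 21.8, 17.8 and 19.3 CPM in wild-type mice, at 16.9, 16.9 and 18.7 CPM in Ms4a6c knockout mice and at 22.7, 25.6 and 21.4 CPM in Ms4a cluster knockout mice. C1qb, the B chain, was at 20.8, 19.2 and 22.8 CPM, at 16.3, 18.5 and 20.6 CPM and at 27.2, 29.4 and 23.3 CPM in the same order. C1qc, the C chain, named after its values were seen, was at 20.2, 15.8 and 17.9 CPM, at 13.9, 15.6 and 14.9 CPM and at 21.4, 25.2 and 21.3 CPM. All 3 chains were higher in each Ms4a cluster knockout mouse than in any Ms4a6c knockout mouse, as for 7.86% of all genes tested. The log2 differences were 0.40 for C1qa, 0.53 for C1qb and 0.61 for C1qc, with standard errors of 0.10, 0.12 and 0.11. Their adjusted p by edgeR were 0.197, 0.123 and 0.0506. C1qc passed an adjusted p of 0.05 in 6 of 19 alternatives, with a range of 0.00189 to 0.213, and C1qb in 1 of 19, by DESeq2, with a range of 0.0203 to 0.354. The macrophage markers, from cells known to make C1q, were separate between the same mice. They were at 65.1 to 68.1 CPM in Ms4a6c knockout and 78.7 to 92.3 CPM in Ms4a cluster knockout mice. Wild-type mice, at 71.2 to 91.2 CPM, overlapped the Ms4a cluster knockout mice. Other marker sums were separate between the knockouts too, given with the Ms4a6c knockout first. Neutrophil markers were at 162 to 326 against 337 to 700 CPM, and fibroblast markers at 1619 to 2257 against 2305 to 2471 CPM. Sustentacular cell markers went the other way, at 6851 to 7379 against 5627 to 6197 CPM. The part of these cells in the C1q values was not tested.

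**Figure D3:**
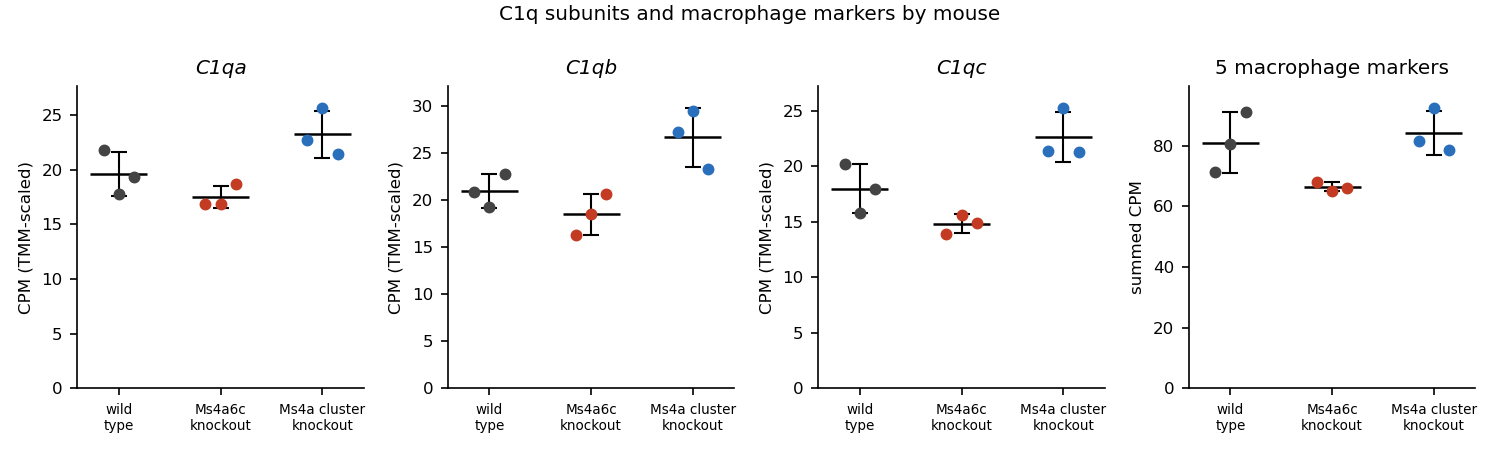
TMM-scaled CPM of the 3 chains of C1q and the summed CPM of 5 macrophage markers (Adgre1, Csf1r, Cd68, Mrc1, Cx3cr1) in each of the 9 mice by genotype, with the mean (bar) and SD of 3 mice, on linear axes from 0. In all 4 panels the Ms4a6c knockout mice lie below the Ms4a cluster knockout mice, as for C1qc at 13.9 to 15.6 against 21.3 to 25.2 CPM.

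C1s2, named after its values were seen and a second gene for the C1s protease, also passed in some alternatives and not in others. It held 28.9, 5.07 and 13.2 counts in wild-type mice, 52.6, 26.6 and 26 counts in Ms4a6c knockout mice and 4.08, 3.03 and 7.16 counts in Ms4a cluster knockout mice. The counts were mostly not whole, so reads were divided with a similar gene and the values are uncertain. Between the knockouts its log2 difference was -2.68 with a standard error of 0.63 and an adjusted p of 0.159 by edgeR, which ranged from 0.0175 to 0.393 over 19 alternatives and was under 0.05 in 4 of them.

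Of the lectin pathway, which starts at microbial sugars, 6 of 8 genes were tested, and 0 were called by edgeR or DESeq2 in any comparison. In Ms4a6c knockout against wild-type mice 2 were higher and 1 lower at an unadjusted p under 0.05, or 50% against 10.5% of all genes, and these 3 had few counts and are named after their values were seen. Colec11, a collectin, was the lower one. Wild-type mice had 8, 6 and 12 of its reads, Ms4a6c knockout mice 1, 3 and 4, and Ms4a cluster knockout mice 14, 8 and 14. Its log2 fold change in Ms4a6c knockout mice was -1.77 with a standard error of 0.59 and an adjusted p of 0.302 by edgeR. Fcnb, a ficolin, had 9, 3 and 4 reads in the wild type and 10, 24 and 27 in the Ms4a6c knockout, and its log2 fold change of 1.81 had a standard error of 0.74 and an adjusted p of 0.435. Masp2, a protease of the pathway, had 1, 1 and 0 expected counts in the wild type and 21.7, 0 and 3 in the Ms4a6c knockout, so its higher mean rested mostly on 1 mouse. Mbl2, a mannose-binding lectin, had log2 fold changes of -0.38 and 0.16 in the Ms4a6c and Ms4a cluster knockouts with standard errors of 0.28 each, and its protease gene Masp1 had 0.05 and 0.35 with standard errors of 0.19 each. Of the receptors, Itgb2 and Itgam, which encode the chains of complement receptor 3, were read at 7.74 ± 0.821 and 5.46 ± 0.55 CPM in wild-type mice. Itgam was at 7.62 ± 1.49 CPM in the Ms4a6c knockout. Its log2 fold change was 0.48, with a standard error of 0.18 and an adjusted p of 0.381 by edgeR.

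CD59 and CD55 reach the cell surface on a GPI anchor, so the genes that build and attach the anchor were examined as well. Of 28 listed genes, 27 were tested, and 0 passed an adjusted p of 0.05 by edgeR in any comparison. DESeq2 passed 1 in the Ms4a6c knockout against wild type, 1 between the knockouts and 0 in the other comparison. In Ms4a6c knockout against wild-type mice 3 were higher and 1 lower at an unadjusted p under 0.05, or 14.8% against 10.5% of all genes. With the cluster removed it was 1 gene, or 3.7% against 4.93%, and between the knockouts 3, or 11.1% against 9.38%. Pigp, of the enzyme that starts the anchor, was at 57.9 ± 2.21 CPM in wild-type and 53.7 ± 3.86 CPM in Ms4a6c knockout mice (SD, n = 3 each). Pigt, of the transamidase that attaches it, was at 88 ± 1.48 and 102 ± 6.64 CPM. Pigu, of the same transamidase and named after its values were seen, was the lower one, at 39.2, 35.9 and 35.8 CPM in wild-type mice and 29.2, 29.6 and 30.1 CPM in Ms4a6c knockout mice. Pigu was at 37, 35.8 and 39.5 CPM in the cluster knockout. Its log2 fold change in Ms4a6c knockout mice was -0.32 with a standard error of 0.07 and an adjusted p of 0.0926 by edgeR.

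The genes around Cd59a on chromosome 2 were compared in the same way. The 20 nearest tested genes on each side span 3.7 Mb, and 39 of them are not Cd59b. In Ms4a6c knockout against wild-type mice 0 of these 39 were called by edgeR and 3 by DESeq2, which were Pdhx, Tcp11l1 and Prrg4, and 7 had an unadjusted p under 0.05, or 17.9% against 10.5% of all genes. With the cluster removed, 0 were called against wild type by either tool and 4 had an unadjusted p under 0.05, or 10.3% against 4.93% of all genes. Between the knockouts 1 was called by edgeR and by DESeq2, and 10 had an unadjusted p under 0.05, or 25.6% against 9.38% of all genes.

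The neighbor called by edgeR was Prrg4, a gene for a transmembrane protein with a Gla domain, 0.735 Mb after the start of Cd59a. It was at 6.82, 5.16 and 4.66 CPM in wild-type mice, at 2.83, 2.61 and 2.23 CPM in Ms4a6c knockout mice and at 5.16, 7.38 and 6.47 CPM in Ms4a cluster knockout mice. Like Cd59a, it was lower in each Ms4a6c knockout mouse than in any other mouse. The log2 difference between the knockouts was 1.29 with a standard error of 0.21 and an adjusted p of 0.0265 by edgeR, and the adjusted p ranged from 0.000142 to 0.157 over 19 alternatives, with 11 of them under 0.05. Set against wild type, the log2 fold change in the Ms4a6c knockout was -1.11 with a standard error of 0.21 and an adjusted p of 0.0627. D430041D05Rik and Ccdc73, named after their values were seen, were also lower in each Ms4a6c knockout mouse than in any other mouse. Of all genes tested, 8.55% were lower without overlap in Ms4a6c knockout than in wild-type mice. For 7.86%, Ms4a6c knockout values were all below those of the cluster knockout, and the share with both was not counted. D430041D05Rik, 0.0473 Mb after the start of Cd59a, was at 1.71, 2.11 and 3.53 CPM in wild-type mice, 1.02 to 1.3 CPM in Ms4a6c knockout mice and 2.35, 1.4 and 2.76 CPM in Ms4a cluster knockout mice. Ccdc73, 0.772 Mb after that start, was at 3.34, 2.77 and 4.49 CPM, at 2.01, 1.74 and 2.48 CPM and at 3.41, 3.79 and 4.46 CPM in the same order. Their log2 fold changes in Ms4a6c knockout mice were -1.11 and -0.77, with standard errors of 0.34 and 0.24 and adjusted p of 0.263 and 0.266 by edgeR.

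The other 2 neighbors called by DESeq2 differed in the other direction. Tcp11l1, 0.561 Mb after the start of Cd59a, was at 6.26, 6.88 and 6.49 CPM in wild-type mice, 8.81, 12 and 11.3 CPM in Ms4a6c knockout mice and 7.61, 6.48 and 6.72 CPM in Ms4a cluster knockout mice. Its log2 fold change in Ms4a6c knockout mice was 0.71 with a standard error of 0.14 and an adjusted p of 0.0906 by edgeR and 0.0137 by DESeq2. Pdhx, which encodes a part of the pyruvate dehydrogenase complex, starts 1.07 Mb before Cd59a. It was at 32.9, 33.1 and 36.4 CPM in wild-type mice, 42, 42.9 and 43.1 CPM in Ms4a6c knockout mice and 37.1, 35.7 and 38.9 CPM in Ms4a cluster knockout mice. Its log2 fold change in Ms4a6c knockout mice was 0.32 with a standard error of 0.06 and an adjusted p of 0.0846 by edgeR and 0.0209 by DESeq2.

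**Figure D4:**
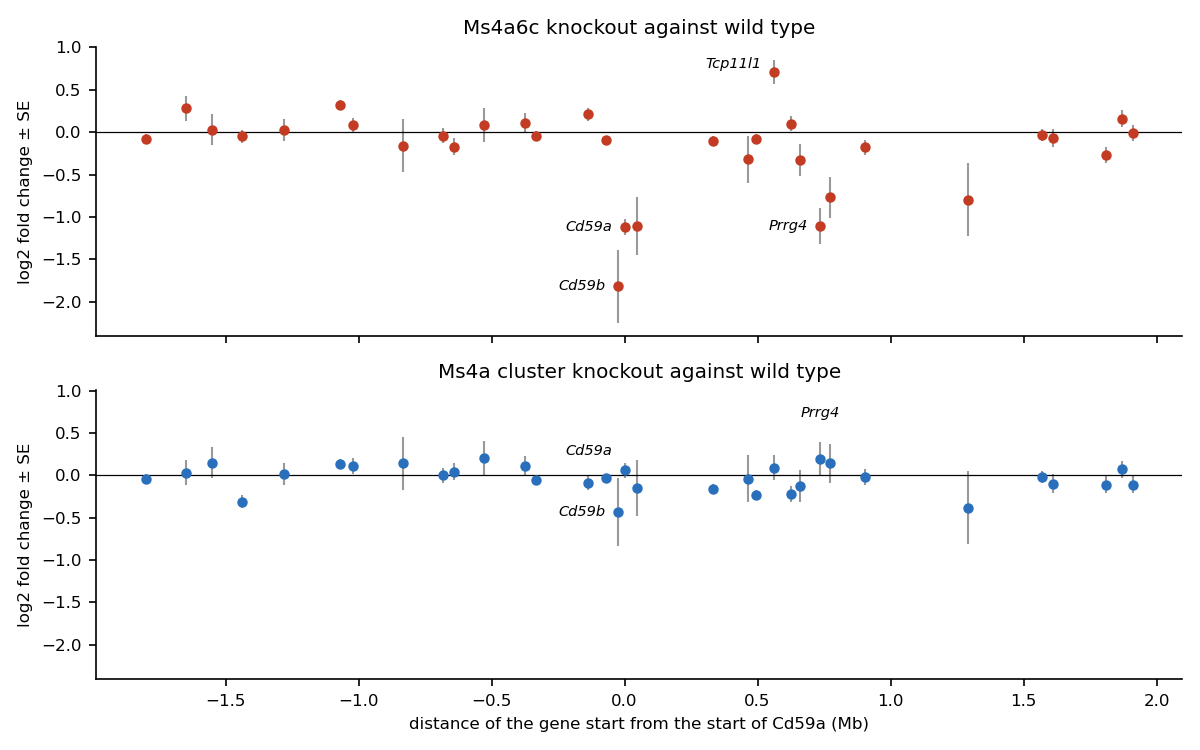
Log2 fold change with standard error against wild type of Cd59a, Cd59b and the 31 genes within 20 tested genes on either side that had a wild-type mean of at least 1 CPM, by the distance of their start from that of Cd59a in Mb, in Ms4a6c knockout (top) and Ms4a cluster knockout mice (bottom). Cd59a at -1.12, Cd59b at -1.82, and Prrg4 and D430041D05Rik at -1.11 each, lie below most others in the top panel, and Cd59a at 0.06 and Prrg4 at 0.19 lie near zero in the bottom panel.

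No gene among the 20 nearest on each side of Cd55, C3 or Cfb was called by edgeR in any of the 3 comparisons. By DESeq2, 1 gene around Cd55 and 1 around C3 were called in the Ms4a6c knockout against wild type and again between the knockouts, and 0 around Cfb. At an unadjusted p under 0.05 in Ms4a6c knockout against wild-type mice there were 2 of 40 around Cd55, 4 of 40 around C3 and 6 of 40 around Cfb, shares of 5%, 10% and 15% against 10.5% of all genes.

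The patterns most like that of Cd59a over the 9 mice were sought among 16537 genes with a mean of at least 1 CPM, as a description. The highest Pearson correlations of log2(CPM + 0.5) were 0.991 for Scel, 0.991 for Snapc1 and 0.99 for Ahcy. Scel, which encodes a protein of the cornified envelope, was at 4.56 ± 0.174, 1.53 ± 0.266 and 5.2 ± 0.461 CPM in wild-type, Ms4a6c knockout and cluster knockout mice (SD, n = 3 each). Snapc1, of the complex that starts small nuclear RNA genes, was at 28.8 ± 0.843, 16.2 ± 1.19 and 28.7 ± 0.79 CPM. Ahcy, which clears S-adenosylhomocysteine, was at 37.5 ± 0.554, 12 ± 0.453 and 36.8 ± 2.6 CPM. All 3 were lowest in the Ms4a6c knockout mice, and they lie on chromosomes 14, 12 and 2. Among the other genes of the set, the correlation with Cd59a was 0.896 for Cd59b, 0.628 for Cfb, 0.12 for C3 and -0.368 for Cd55. Cd59b shares with Cd59a the low values in the Ms4a6c knockout mice.

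The other genes were matched by different sets. Closest to Cd59b were Dipk2a at 0.954 and G2e3 at 0.951. Closest to Cd55 were Slc12a2 at 0.956, Maco1 at 0.929 and Olfr535 at 0.925. Closest to C3 were E130102H24Rik at 0.944, Tipin at 0.925 and Gm11175 at 0.922. Closest to Cfb were Olfr455 at 0.944, Ptdss1 at 0.939 and Eif2b1 at 0.937. These values are the highest among 16537 genes over only 9 mice, and all genes of a mouse share its library and depth.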

How the data were processed

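Main olfactory epithelium of 9 mice was sequenced as directional poly-A libraries with paired reads of 150 bases. The authors aligned the reads with STAR 2.6.1 and deposited RSEM 1.3.1 expected counts per gene (DolphinNext, GENCODE M25, mm10), without normalization. Their own tests used DESeq2 1.30.1 in R 4.0.0 or later. Totals were 13954591 to 21987174 per mouse, and 3 counts, taken as the limit of detection, correspond to 0.123 to 0.299 CPM. Without molecular identifiers, these limits, like the exact interval of the Cd59b count ratio, describe counting error alone. The intervals of log2 fold changes come from the quasi-likelihood fit of edgeR and also include variation between mice.

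Genotypes were taken from the sample labels. Expected counts were rounded, genes with at least 10 counts over the 9 mice were kept, and TMM scaling with edgeR 4.0.16 in R 4.3.3 was followed by the quasi-likelihood test, with all 9 mice in a single model and p-values adjusted by Benjamini-Hochberg over all genes tested. A standard error is the size of the log2 fold change over the root of its F statistic. The edgeR procedure was tested on simulated data. DESeq2 1.42.0 was an alternative. Permutation tests used scipy 1.17.1 in Python 3.11 and figures matplotlib 3.10.9. Per-kb values divide CPM by the exonic length of GENCODE M21 transcripts, the release used for positions, to which 99.6% of the genes were matched. Similar genes were sought with blast 2.17.0 with a minimum of 90% identity over 300 bases. RefSeq promoters were matched for Cd59a, Cd59b, Cd55 and C3.

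The 5 genes, the lists and the alternatives were chosen with earlier results of these data known. Text names the 5 genes, called genes of the lists or around the 5 genes, the 2 genes of each role with the highest wild-type level per length, and the 3 most similar patterns, of which 1 for Cd59b is not reported here. Leaving out the 2 gland-rich mice was chosen after the data were seen. Sex was not in the labels and was read from Xist and Ddx3y.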

Additional observations from a re-analysis of the deposited data

Results flagged for a closer look

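Prrg4, near Cd59a, was flagged because its level in the knockouts differed by a test of the difference itself, with an adjusted p of 0.0265 by the quasi-likelihood test of edgeR. It was lower in all 3 Ms4a6c knockout mice, at 2.55 CPM on average against 6.33 CPM in Ms4a cluster knockout and 5.55 CPM in wild-type mice. The adjusted p was 0.0187 without wild-type mouse 1, 0.0394 without wild-type mouse 3 and 0.0333 without Ms4a cluster knockout mouse 1. It was 0.0607 without wild-type mouse 2, 0.0741 and 0.0966 without Ms4a cluster knockout mice 2 and 3, and 0.0587, 0.118 and 0.157 without Ms4a6c knockout mice 1, 2 and 3. The log2 difference stayed between 1.18 and 1.42 in these 9 fits.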

How the results depend on the processing

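The difference in Cd59a kept its direction and size under 19 alternatives, which refit the same mice that led to the choice of the gene. No test of a single gene among the 5 changed its side of the threshold, and none was run in Ms4a6c knockout against wild-type mice. The sign of C3 in Ms4a cluster knockout against wild-type mice was reversed to 0.21 without the 2 gland-rich mice, and ranged from -0.21 to 0.11 when 1 mouse was left out, with 0.11 without Ms4a cluster knockout mouse 2 and 0.03 without wild-type mouse 1. Between the knockouts C3 ranged from -0.08 to 0.21 when 1 mouse was left out, with -0.08 without Ms4a cluster knockout mouse 1, -0.06 without mouse 3, and -0.00 and -0.08 without Ms4a6c knockout mice 1 and 2. The log2 fold change of Cd59b in Ms4a6c knockout mice ranged from -1.98 to -1.66 when 1 mouse was left out.

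Counts of called genes depended more on the processing. In Ms4a cluster knockout against wild-type mice 6 genes were called, 18 by DESeq2 and 3 to 7 when 1 mouse was left out, with 3 without Ms4a6c knockout mouse 3 or wild-type mouse 2 or 3. In Ms4a6c knockout against wild-type mice 101 were called, 345 by DESeq2, 182 with no filter, 350 without the gland-rich mice, and 59 to 159 when 1 mouse was left out, with 159 without Ms4a cluster knockout mouse 2, 64 without Ms4a6c knockout mouse 3, and 59 and 60 without wild-type mice 2 and 3. Between the knockouts 103 were called, 271 by DESeq2, 155 with no filter and 66 to 121 when 1 mouse was left out, with 66 and 67 without Ms4a6c knockout mice 2 and 3.

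Of the 40 other complement genes, 0 were called between the knockouts, and 0 at an adjusted p under 0.01 in any comparison. The count was 3 by DESeq2 (C1qc, C1qb and C1s2), 2 with a gland covariate and 0 to 2 when 1 mouse was left out, with 2 without wild-type mouse 1. It was 1 with the knockout genotypes alone, with edgeR's own filter, with no filter and without the gland-rich mice. Around Cd59a 0 genes were called in Ms4a6c knockout mice, 3 by DESeq2, 1 with a gland covariate, 1 with no filter, 2 among 50 genes on each side (B230118H07Rik and Olfr1278), and 0 to 1 when 1 mouse was left out, with 1 without Ms4a cluster knockout mouse 2 or Ms4a6c knockout mouse 1. The causes were not tested.

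Replicate numbers were not treated as pairs, since deviations of same-numbered mice correlated at -0.537 to 0.107 and not every mouse correlated best with its own number. The gland-rich mice, wild-type mouse 1 and Ms4a cluster knockout mouse 2, correlated at 0.474. Whether gland content hid a pairing was not tested. With the replicate number as a block 2 genes were called in Ms4a cluster knockout against wild-type mice in place of 6, and Prrg4 was not called between the knockouts, with an adjusted p of 0.0895 and a log2 difference of 1.31. The 5 genes and the other complement genes kept the side of the threshold they had. At 3 mice per genotype and 2 to 12 counts, differences in Cd59b were limited by depth.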
